A study of Homo sapiens with 14 samples.

Results

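The genes whose surface products are, or have been tried as, targets of antibodies and chimeric antigen receptor (CAR) T cells in multiple myeloma (MM) were examined for accessible chromatin in 2 MM cell lines. The 9 members, of 20020 protein-coding genes, were chosen by name, with a rule that uses no measured value: TNFRSF17, TNFRSF13B, TNFRSF13C, CD38, SLAMF7, FCRL5, GPRC5D, SDC1 and MS4A1. For each member, all reference peaks that overlapped the gene body or the 50 kb on either side (GENCODE release 44, hg38) were taken. These windows held 106 of the 72802 reference peaks of MM.1S and 102 of the 79969 reference peaks of RPMI8226.

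Both lines are established human myeloma lines, profiled by Omni-ATAC, which marks open chromatin by transposase insertion. MM.1S had 3 libraries of cells in monoculture (MONO), 3 of cells from the upper transwell above HS5 bone marrow stromal cells (TSW) and 3 of cells from the lower chamber in contact with HS5 (CO). RPMI8226 had 1 MONO, 2 TSW and 2 CO libraries. Every group was thus a tissue culture model of 1 MM line, with HS5 as the only stromal line. By the study's methods the cells had been sorted as positive for CD38 and negative for CD90, so that CD38, a member, was also the sort marker, and THY1, which encodes CD90, had no promoter peak in either list. All 7 plasma cell markers examined, among them IRF4, PRDM1 and XBP1, had a promoter peak in both lists, as did 68.7% of all protein-coding genes. Of 5 T or NK cell markers, 1 did (NCAM1). Of 8 B cell markers, 8 had a promoter peak in MM.1S and 6 in RPMI8226, and of 5 myeloid markers 2 and 5. A promoter peak was present for 76.9% (MM.1S) and 71.9% (RPMI8226) of all protein-coding genes. Stromal markers had promoter peaks in 6 of 9 genes in MM.1S and in 5 of 9 in RPMI8226, with THY1, LUM and POSTN at none in either list, and the part of residual HS5 cells in any peak was not tested.

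A reference peak is an interval found in 3 or more libraries of a line, whatever their culture condition. The only value given for it is read here as its support, the number of libraries with the peak, up to 9 in MM.1S and up to 5 in RPMI8226. The lowest support is thus 33.3% of the libraries of MM.1S and 60.0% of those of RPMI8226, and the lists are not equally strict. A peak says that chromatin was open, not how open, and it does not report expression. The lists hold no read counts, so MONO, TSW and CO could not be compared, and no test between groups was run. Depth is not in the lists, and the read totals that the study tabulates were not used here. They are uneven, with a MONO library of MM.1S far below the other libraries of that line, and their part in the support values and in the differences between lines was not tested. Each line has 1 list, and the 95% Wilson intervals given for shares cover counting error only, over peaks of which many are neighbours at the same gene.

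TNFRSF17 (BCMA), TNFRSF13B (TACI) and TNFRSF13C (BAFF-R) are the receptors of the cytokines APRIL and BAFF, which sustain B cells and plasma cells. BCMA is typical of plasma cells and BAFF-R of B cells. CD38 is an ectoenzyme that consumes NAD, SLAMF7 (CS1) is a receptor of the SLAM family, SDC1 (CD138) is a heparan sulfate proteoglycan of the plasma cell surface, FCRL5 is an Fc receptor-like protein of the B lineage, and GPRC5D is an orphan G protein-coupled receptor. MS4A1 (CD20) is a B cell antigen that is usually lost when B cells become plasma cells. Promoters lie at transcription start sites, and distal accessible regions often hold enhancers, which can act on genes other than the nearest one.

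Most of the target genes carried an open promoter in both lines. A promoter peak, which overlaps the 2500 bp on either side of a start site of the gene, was present for 8 of the 9 members in MM.1S, against 76.9% of all protein-coding genes. In RPMI8226 it was present for 7 of the 9, against 71.9% of all protein-coding genes. TNFRSF17, TNFRSF13B, CD38, SLAMF7, FCRL5, GPRC5D and SDC1 had a promoter peak in both lists (68.7% of all protein-coding genes), TNFRSF13C in MM.1S only (8.18%) and MS4A1 in neither (19.9%), and no member had one in RPMI8226 only (3.21%). These shares of members are close to the background.

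**Figure D1:**
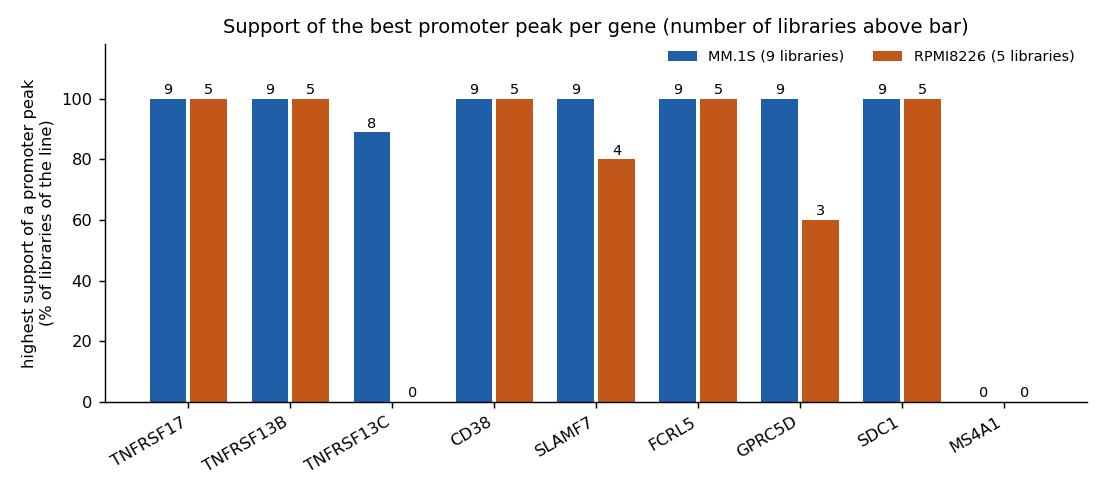
Highest support of a promoter peak of each target gene, as a percentage of the libraries of the line (y axis), with the number of libraries above each bar. TNFRSF17, TNFRSF13B, CD38, FCRL5 and SDC1 reach every library in both lines, FCRL5 in MM.1S through an inner start site. SLAMF7 and GPRC5D do so in MM.1S only, TNFRSF13C has a bar in MM.1S only and MS4A1 has none.

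Support of the promoter peaks was compared as well, with a ceiling of 9 libraries in MM.1S and 5 in RPMI8226. A promoter peak called in every library was found for 7 of the 9 members in MM.1S (69.3% of all protein-coding genes), all but TNFRSF13C, whose best promoter peak was called in 8 of 9 libraries, and MS4A1. In RPMI8226 it was found for 5 of the 9 (66.6% of all protein-coding genes), since the best promoter peak of SLAMF7 was called in 4 of 5 libraries and that of GPRC5D in 3 of 5. The same 5 members, TNFRSF17, TNFRSF13B, CD38, FCRL5 and SDC1, had such a peak in both lines (62.0%). As shares of the 9 members these were 77.8% in MM.1S, 55.6% in RPMI8226 and 55.6% in both. So few members do not set them apart from the background. Any start site of a gene counted. At FCRL5 the MM.1S peak called in 9 of 9 libraries lay at an inner start site 28.3 kb downstream. The MM.1S peak at its canonical start site was called in 8 of 9. The plot of promoter support by gene shows these steps.

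Most of these promoters were of a kind that less often carried a peak. In the 300 bases around the canonical start site, 7 of the 9 members were poor in CpG dinucleotides, with an observed over expected ratio under 0.6, as were 32.6% of all protein-coding genes. The ratio was 0.16 for SLAMF7, 0.17 for MS4A1, 0.19 for CD38, 0.20 for TNFRSF13B, 0.26 for GPRC5D, 0.31 for FCRL5 and 0.43 for TNFRSF17. It was 0.65 for TNFRSF13C and 0.68 for SDC1, both under the median of 0.775 over all protein-coding genes. CpG-poor promoters tend to belong to genes with restricted expression, and CpG-rich ones to broadly active genes. Of the 6528 CpG-poor genes, a promoter peak was present for 48.6% in MM.1S and for 45.2% in RPMI8226, and of the 7 CpG-poor members 6 had one in each line. A promoter peak called in every library was found for 6 of these 7 members in MM.1S (35.4% of CpG-poor genes) and for 4 in RPMI8226 (36.9%). CpG was taken at the canonical start site, whereas peaks were counted at any start site of the gene. The MM.1S peak of FCRL5 called in every library lay 28.3 kb from its canonical start site, where the peak was called in 8 of 9.

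Of the promoters, 5 had an entry in the RefSeq promoter table (GRCh38.p14), and the bases upstream of the start site (of any annotated start, which shortens CD38) are printed to show what these open regions are made of. TNFRSF17, TNFRSF13C, SLAMF7 and MS4A1 had no entry. Of the printed bases, MM.1S peaks covered all 250 at TNFRSF13B, GPRC5D and SDC1, all 197 at CD38 and 61 of 250 at FCRL5. RPMI8226 peaks covered 187 at TNFRSF13B, 193 at GPRC5D, all 250 at SDC1, all 197 at CD38 and 174 at FCRL5. Capitals mark matches, on either strand, to the E-box CAGGTG (TNFRSF13B, CD38 and SDC1), the E-box CAGCTG (FCRL5 and SDC1) and the IRF dimer motif GAAANNGAA (GPRC5D).
TNFRSF13B, chr17:16972119-16972368, minus strand: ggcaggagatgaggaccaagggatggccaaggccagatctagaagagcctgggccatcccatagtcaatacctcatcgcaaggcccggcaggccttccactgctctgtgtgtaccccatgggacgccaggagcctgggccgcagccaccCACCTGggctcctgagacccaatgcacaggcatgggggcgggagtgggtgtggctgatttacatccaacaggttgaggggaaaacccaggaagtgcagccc
CD38, chr4:15778078-15778274, plus strand: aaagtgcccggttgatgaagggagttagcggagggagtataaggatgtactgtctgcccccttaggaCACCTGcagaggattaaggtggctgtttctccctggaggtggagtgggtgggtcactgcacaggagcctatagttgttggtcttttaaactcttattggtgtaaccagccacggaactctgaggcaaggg
FCRL5, chr1:157552516-157552765, minus strand: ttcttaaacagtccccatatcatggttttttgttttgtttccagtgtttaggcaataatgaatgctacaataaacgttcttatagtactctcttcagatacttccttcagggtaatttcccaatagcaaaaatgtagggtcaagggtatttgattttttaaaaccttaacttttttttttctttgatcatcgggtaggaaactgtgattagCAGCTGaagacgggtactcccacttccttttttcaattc
GPRC5D, chr12:12952171-12952420, minus strand: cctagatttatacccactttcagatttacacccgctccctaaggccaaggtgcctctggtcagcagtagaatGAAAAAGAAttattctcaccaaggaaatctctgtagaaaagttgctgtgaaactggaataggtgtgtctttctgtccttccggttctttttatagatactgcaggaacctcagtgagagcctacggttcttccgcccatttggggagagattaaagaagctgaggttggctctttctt
SDC1, chr2:20225476-20225725, minus strand: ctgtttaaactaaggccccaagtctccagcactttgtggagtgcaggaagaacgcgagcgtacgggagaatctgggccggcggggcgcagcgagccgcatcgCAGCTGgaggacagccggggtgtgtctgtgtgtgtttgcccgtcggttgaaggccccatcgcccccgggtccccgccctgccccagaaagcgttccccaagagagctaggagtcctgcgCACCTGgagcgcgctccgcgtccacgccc

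The same motifs were counted in all 9 members in the 300 bases (250 before and 50 after) at the GENCODE canonical start sites, which for SDC1 differ from the RefSeq start used above. CAGGTG, the E-box bound by ZEB-type and some E proteins, matched at TNFRSF17, TNFRSF13B, CD38 and MS4A1 (20.4% of all protein-coding promoters). GAAANNGAA, the motif of IRF dimers, matched at TNFRSF17, CD38 and GPRC5D (7.03%). GGAANNGAA, the composite element of ETS and IRF factors, matched at CD38 (7.28%). CAGCTG, an E-box of E2A, matched at SLAMF7 and FCRL5 (17.7%), and the octamer ATGCAAAT of OCT factors at SLAMF7 (1.61%). The SP or KLF motif GGGGCGGGG matched at TNFRSF13C and SDC1 (24.5%), the members with a CpG ratio above 0.6. None of the 9 windows matched AP-1 (TGACTCA), STAT3 (TTCCNGGAA) or ATF::CEBP (TGATGNAA), which matched in 3.57%, 1.20% and 2.50% of all protein-coding promoters, too few to set 0 of 9 apart. The members' own promoter peaks, searched whole, did hold some matches. STAT3 matched at CD38 and FCRL5 in both lines and at SDC1 in MM.1S. ATF::CEBP matched at TNFRSF13B in both lines, and AP-1 at an inner SLAMF7 start site in RPMI8226. A match is a run of letters and does not show that a factor was bound.

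Beyond promoters, the windows differed widely among genes. Of the 106 MM.1S peaks, 16 were at the member's own promoter, 28 at the promoter of another gene and 62 were distal, meaning in no promoter window. Of the 102 RPMI8226 peaks, 14 were at the member's own promoter, 31 at another promoter and 57 were distal. Of the distal peaks, 32 of 62 in MM.1S and 31 of 57 in RPMI8226 were intergenic, and 14 and 12 lay in introns of the member itself. No peak lay in the windows of more than 1 member.

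**Figure D2:**
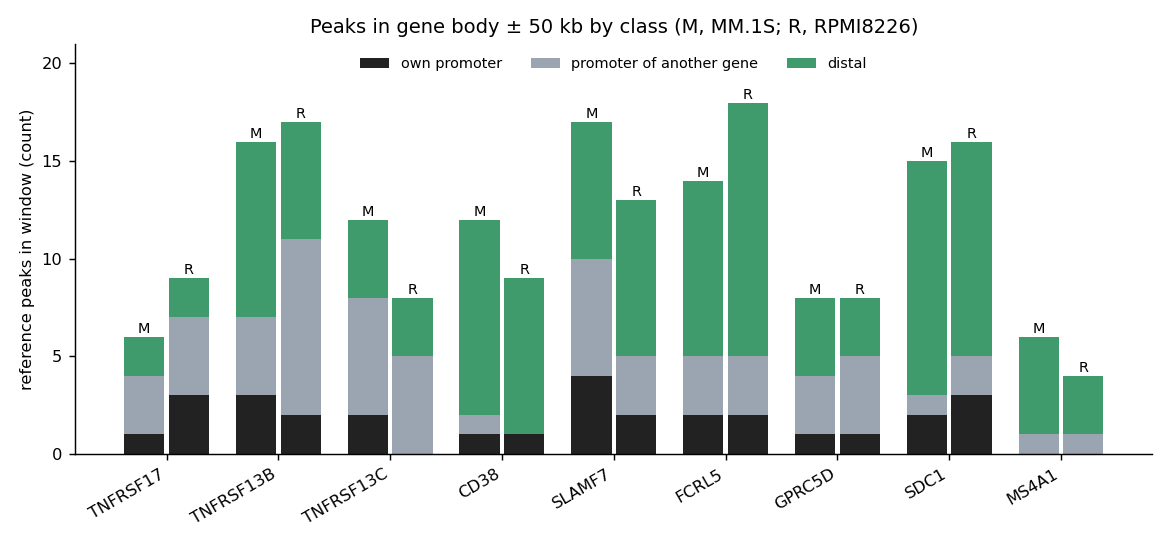
Number of reference peaks (y axis) in the window of each target gene, stacked by class, with MM.1S (M) left and RPMI8226 (R) right. Counts run from 4 (MS4A1, RPMI8226) to 18 (FCRL5, RPMI8226), and distal peaks make up most of the bars of CD38, FCRL5, SDC1 and MS4A1.

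Windows differ in length, and peak density was therefore ranked among all protein-coding genes. SLAMF7 had 14.7 peaks per 100 kb in MM.1S (percentile 99.1) and 11.2 in RPMI8226 (percentile 93.4). SDC1 had 12.0 (percentile 95.9) and 12.8 (percentile 96.6). FCRL5 had 10.1 (percentile 90.6) and 12.9 (percentile 96.7), and TNFRSF13B had 11.2 (percentile 94.1) and 11.9 (percentile 95.1). By this count of peaks these 4 genes were above the 90th percentile in both lines. So was CD48, a neighbour of SLAMF7 (98.1 and 95.3), whereas LY9 on its other side was not (73.6 and 76.9). Of the family of FCRL5, FCRL1 (93.2), FCRL2 (93.9) and FCRL3 (90.6) were above it in RPMI8226 only. FCRL4 was in neither line (76.6 and 88.2). MS4A1 lay lowest of the members, with 5.22 (percentile 60.4) and 3.48 (percentile 39.5). By the share of the window covered by peaks, SDC1 alone of the members was above the 90th percentile in both lines (98.0 and 95.5). By that share SLAMF7 lay at percentiles 92.9 and 72.5, FCRL5 at 80.9 and 91.7, and TNFRSF13B at 86.6 and 87.7. In peaks per 100 kb TNFRSF13C stood apart between lines, with 11.5 in MM.1S (percentile 94.6) and 7.64 in RPMI8226 (percentile 77.5). So did TNFRSF17 in the other direction, with 5.83 (percentile 66.4) and 8.75 (percentile 83.9). By covered share TNFRSF13C lay at percentiles 94.1 and 79.4, whereas TNFRSF17 differed little, at 68.7 and 70.1. In peaks per 100 kb, the remaining members were as follows. CD38 had 6.86 (percentile 74.0) and 5.14 (percentile 57.6), and GPRC5D had 7.17 in both (percentiles 76.1 and 74.2).

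**Figure D3:**
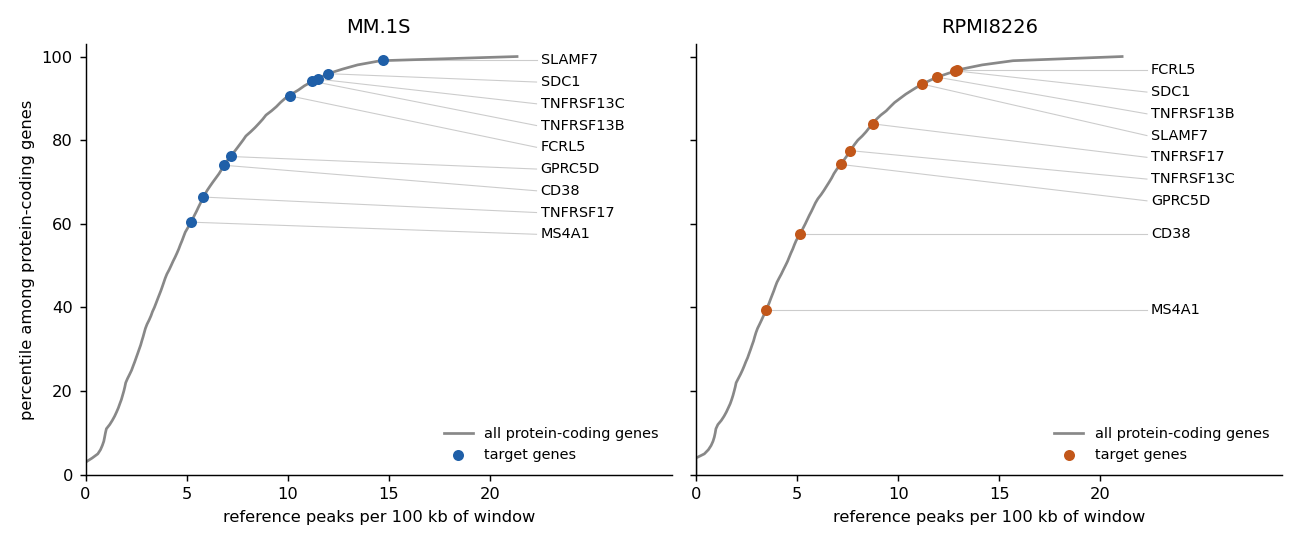
Reference peaks per 100 kb of window (x axis) against the percentile among all 20020 protein-coding genes (y axis), for MM.1S (left) and RPMI8226 (right). The grey line is all protein-coding genes, and the points run from MS4A1 (5.22 and 3.48 peaks per 100 kb) to SLAMF7 in MM.1S (14.7) and FCRL5 in RPMI8226 (12.9).

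TNFRSF17 (chr16:11965210-11968068, plus strand) is a short gene within an intron of NPIPB2, a gene of a family with near-identical copies, and reads that map to several places had been left out by the authors. In MM.1S all 6 peaks of its window were called in 9 of 9 libraries. Its promoter was a 964-bp peak in MM.1S and, in RPMI8226, peaks of 229 bp (4 of 5 libraries) and 407 bp (5 of 5) that overlapped it, with a further 189-bp peak 1.2 kb downstream (4 of 5) that RPMI8226 alone had. The promoter was thus open in both lines, as a wide interval in MM.1S and in pieces in RPMI8226. Some distal peaks were found in a single line: a 379-bp peak 6.1 kb upstream (9 of 9 libraries) belonged to MM.1S, and a 361-bp peak 51.3 kb downstream in SNX29 (4 of 5) to RPMI8226. A peak about 15.5 kb upstream was shared (378 bp in MM.1S, 194 bp in RPMI8226, every library of both). The promoters of GSPT1, SNX29 with NPIPB2, and UBL5P4 held shared peaks as well.

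TNFRSF13B (chr17:16929816-16972118, minus strand) had 16 peaks in MM.1S and 17 in RPMI8226, of which 11 and 14 were shared. Its start site lay in a peak of 606 bp in MM.1S and 458 bp in RPMI8226, and a second promoter peak within the first part of the gene was 1037 bp and 740 bp wide. All 4 of these peaks were called in every library. A further promoter peak, of 336 bp and 1.7 kb upstream (7 of 9), was found in MM.1S only. Within the introns the lines differed, since MM.1S had peaks 21.4 kb (3 of 9), 23.4 kb (4 of 9) and 24.4 kb (9 of 9) downstream of the start site that RPMI8226 lacked. Upstream of the start site, RPMI8226 had peaks at 9.1 kb (717 bp), 14.5 kb (292 bp) and 25.6 kb (522 bp) that MM.1S lacked, each 5 of 5. A 230-bp peak 19.4 kb upstream (7 of 9) was found in MM.1S only. At LINC02090, a noncoding gene next to TNFRSF13B, a 2320-bp peak of MM.1S overlapped 4 narrow peaks of RPMI8226. The widest distal peak called in every library lay about 55.9 kb downstream of the start site, beyond the gene's end, and was shared (801 and 719 bp). The promoters of TBC1D27P and of the genes with the identifiers ENSG00000230709 and ENSG00000290698 also held shared peaks.

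TNFRSF13C (chr22:41922032-41926806, minus strand) was the only member with a promoter peak in a single line. In MM.1S its promoter held an 811-bp peak (8 of 9 libraries) and a 746-bp peak 2.5 kb upstream (4 of 9), and RPMI8226 had no peak there. The difference covered a wider stretch: 5 MM.1S peaks in a row, from 18.4 kb downstream to 2.5 kb upstream of the start site and including the SHISA8 promoter (658 bp, 9 of 9), had no counterpart in RPMI8226. RPMI8226 had in that stretch only a 397-bp peak 8.6 kb downstream (3 of 5), which overlapped none of them. Upstream, toward CENPM, most peaks were found in both lines, with 3 shared peaks at the CENPM promoters, shared peaks 31.1 kb and 33.9 kb upstream and another at a SEPTIN3 promoter, whereas a 447-bp peak at a SEPTIN3 promoter 49.8 kb upstream (8 of 9) was found in MM.1S only. RPMI8226 also had a peak at MIR33A (4 of 5) that MM.1S lacked. A peak's absence from the RPMI8226 list means a call in fewer than 3 of the 5 libraries, not that no read was found.

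Of the BAFF and APRIL system around the receptors, the ligand genes TNFSF13 (APRIL) and TNFSF13B (BAFF) had promoter peaks in every library of both lines. So did all 4 signalling genes examined (TRAF2, TRAF3, TRAF6 and CAMLG) and all 4 genes of gamma-secretase, the protease that sheds BCMA from the surface. Of all protein-coding genes, 62.0% had a promoter peak in every library of both lines. Of the genes of this axis examined, TNFRSF13C in RPMI8226 alone lacked a promoter peak.

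CD38 (chr4:15778275-15853232, plus strand) carried a wide promoter peak and a row of distal peaks common to both lines. Its promoter peak was 1239 bp wide in MM.1S and 1225 bp in RPMI8226, shared 1166 bp and was called in every library. All 9 RPMI8226 peaks of the window were called in 5 of 5 libraries, and 8 of them were shared. MM.1S had 12 peaks, of which 7 were called in 9 of 9 libraries, and its 4 unshared peaks had supports of 3, 4, 4 and 6. The peaks that the lines had in common ran from 21.8 kb upstream through introns of the gene to 104.5 kb downstream, and the widest upstream one, 11.9 kb away, was 854 bp in MM.1S and 679 bp in RPMI8226. A 419-bp intronic peak 3.6 kb downstream was found in RPMI8226 only. BST1, the neighbouring paralog of CD38, had no promoter peak in either list. Since the cells were sorted on CD38 protein, cells without it would have been removed, and how far the sort bears on these peaks was not tested.

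SLAMF7 (chr1:160739057-160754821, plus strand) shared a 364-bp (MM.1S, 9 of 9) and 310-bp (RPMI8226, 4 of 5) peak at its start site. MM.1S carried 3 more promoter peaks just inside the gene, of 723 bp (7 of 9), 157 bp (3 of 9) and 458 bp (3 of 9), and an intronic peak 4.2 kb downstream (9 of 9), none of which RPMI8226 had. RPMI8226 had instead a 301-bp peak at an inner start site 9.9 kb downstream (4 of 5). In RPMI8226, 4 of 13 peaks of the window were called in every library and 9 had a support of 4 or less, against 8 of 17 called in every library in MM.1S. SLAMF7 was thus the member with the most peaks in RPMI8226 that could lack the single MONO library, followed by TNFRSF13B with 7 of 17. Over all RPMI8226 peaks, 64.1% were called in every library and 35.9% had a support of 4 or less. Over all MM.1S peaks, 52.0% were called in every library. Shared distal peaks lay about 12.6 kb upstream (1181 bp in MM.1S, over 194-bp and 320-bp peaks of RPMI8226) and 28.9 kb downstream (1196 and 171 bp). CD48 and LY9, the flanking genes of the same family, had shared promoter peaks, and the gene with the identifier ENSG00000274562 did too.

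Among SLAM family genes and adaptors, 4 of 8 had a promoter peak in MM.1S and 4 of 8 in RPMI8226, against 76.9% and 71.9% of all protein-coding genes. SLAMF6 had one in MM.1S only (9 of 9), the adaptor SH2D1B in RPMI8226 only (5 of 5), and SLAMF1, CD84 and SH2D1A in neither.

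SDC1 (chr2:20200797-20225433, minus strand) had the largest covered share of its window, 10.5% in MM.1S (percentile 98.0) and 6.73% in RPMI8226 (percentile 95.5). Its start site lay in peaks of 1543 bp and 1362 bp that shared 1356 bp and were called in every library. Distal peaks numbered 12 and 11. The widest was a 2386-bp intronic peak of MM.1S, 11.5 kb downstream of the start site (9 of 9), over which RPMI8226 had 3 separate peaks of 194, 271 and 601 bp. The widest distal peak of RPMI8226 called in every library, 731 bp at 26.9 kb downstream, was shared too. The SDC1 region was thus open along the gene in both lines, and 11 of 15 MM.1S and 13 of 16 RPMI8226 peaks were shared. The promoter of the pseudogene DRG1P1 held a shared peak and that of RPS16P2 a peak in RPMI8226 only. Of the other syndecans, heparanase and the syndecan adaptor SDCBP, a promoter peak was found for 5 of 5 genes in MM.1S (76.9% of all protein-coding genes). In RPMI8226 it was found for 4 of 5 (71.9%), and SDC2 had none.

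FCRL5 (chr1:157513377-157552515, minus strand) was the member most alike in both lists from the MM.1S side, as all 14 of its MM.1S peaks were shared. Its start site lay in peaks of 601 bp (8 of 9) and 687 bp (5 of 5), and an inner start site 28.3 kb downstream had peaks of 874 bp (9 of 9) and 587 bp (5 of 5). RPMI8226 added 4 distal peaks that MM.1S lacked, 3 of them within the gene at 9.5 kb (5 of 5), 11.4 kb (4 of 5) and 17.6 kb (3 of 5) downstream of the start site and the last 58.2 kb downstream (5 of 5). Within the gene body the lists thus differed by these 3 peaks, whereas the promoter peaks were shared. Of the RPMI8226 distal peaks of the window, 9 of 13 were shared, against 53.7% of all RPMI8226 distal peaks. A row of 7 shared distal peaks lay downstream, between 40.5 and 65.9 kb from the start site in MM.1S, the widest of them 865 and 623 bp. All 3 peaks at FCRL4 promoters were shared, and all 5 other Fc receptor-like genes examined had promoter peaks in both lines (68.7% of all protein-coding genes).

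GPRC5D (chr12:12940575-12952170, minus strand) had 8 peaks in each list, 6 of them shared in each. Its promoter peak was 634 bp wide and called in 9 of 9 libraries in MM.1S, whereas in RPMI8226 it was 230 bp wide and called in 3 of 5, the lowest support that the list allows. No other member with a promoter peak had a best support this low. The 2 shared distal peaks upstream followed the same order. The peak 23.7 kb away had 9 of 9 and 3 of 5 libraries. That about 40.7 kb away, within HEBP1, had 9 of 9 (828 bp) and 4 of 5 (318 bp). MM.1S also had upstream peaks 31.6 kb (4 of 9) and 34.0 kb (6 of 9) away that RPMI8226 lacked. The neighbouring promoters of GPRC5A, MIR614 and HEBP1 with HTR7P1 held shared peaks called in every library of both lines. RPMI8226 had an extra 582-bp peak in a GPRC5A intron (5 of 5) and an extra 289-bp peak at a GPRC5A promoter (5 of 5). In the GPRC5 family, GPRC5B had a promoter peak in MM.1S only and GPRC5A and GPRC5C in both.

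MS4A1 (chr11:60455846-60470752, plus strand) was the only member with no promoter peak in either list, and no peak of either list lay within the gene. Its window still held 6 peaks in MM.1S and 4 in RPMI8226, and all 4 of the latter were shared. The nearest lay 9.0 kb upstream in an intron of MS4A5, 1013 bp wide in MM.1S (9 of 9) and 328 bp in RPMI8226 (5 of 5). Peaks 30.4 kb and about 43.1 kb downstream were shared as well, and the MS4A5 promoter held a shared peak. Of the B cell receptor complex and its coreceptors, a promoter peak was found for 6 of 6 genes in MM.1S (76.9% of all protein-coding genes). In RPMI8226 it was found for 4 of 6 (71.9%), and CD22 and CD79B had none. In MM.1S the lack of a promoter peak at MS4A1 was thus not shared by these other B cell surface genes.

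**Figure D4:**
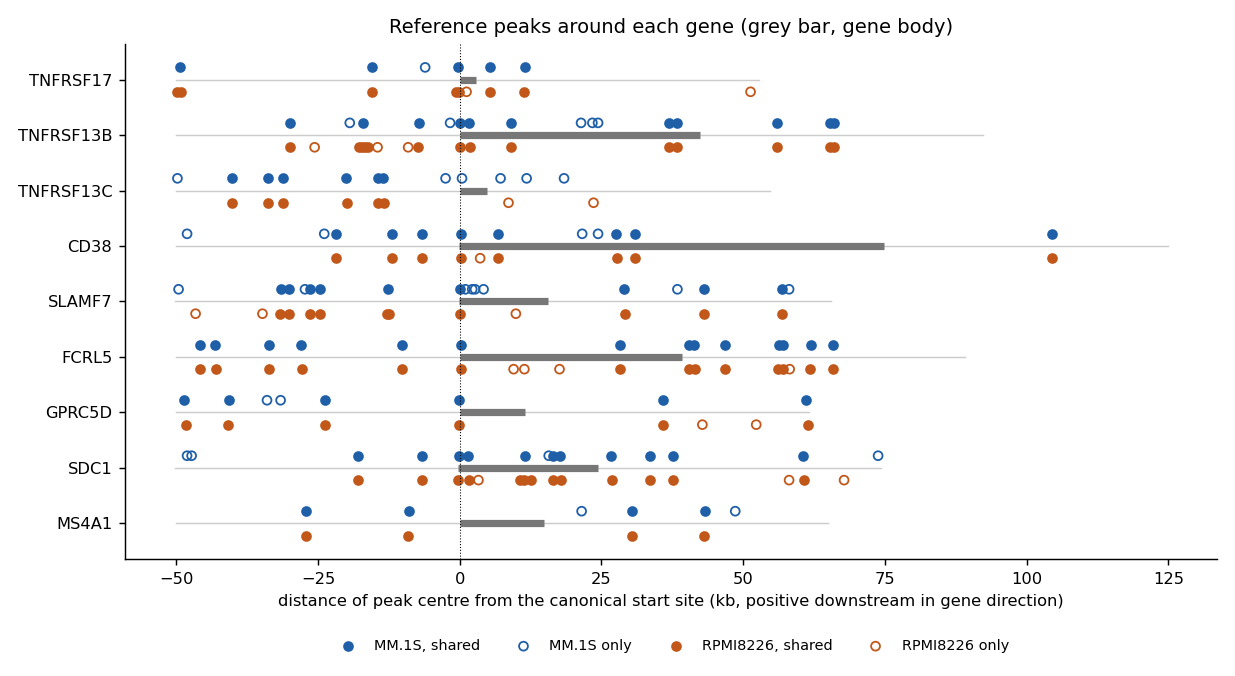
Position of each reference peak relative to the canonical start site of its gene (x axis, kb, positive downstream), with MM.1S above and RPMI8226 below each line, filled when shared and open when found in that line only. Grey bars are gene bodies, and the run of 5 open MM.1S symbols at TNFRSF13C, the open RPMI8226 symbols inside FCRL5 and the empty gene body of MS4A1 stand out.

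The sequences at some of the distal regions are printed because they overlap peaks of both lines, at or near genes described above, and hold motifs of factors that the study examined or that act in B cells. They are central stretches of a peak in hg38, plus strand, and capitals mark matches on either strand to AP-1 (TGACTCA) at TNFRSF17, to CAGGTG and ATF::CEBP (TGATGNAA) at CD38, to CAGCTG and the composite element of ETS and IRF factors (GGAANNGAA) at FCRL5, and to the IRF dimer (GAAANNGAA) and ATF::CEBP at GPRC5D. The stretches at TNFRSF17, CD38 and FCRL5 were cut from the RPMI8226 peak and lie wholly within the MM.1S peak too. That at GPRC5D was cut from the MM.1S peak, and the RPMI8226 peak covers 105 of its 200 bases and 2 of its 3 matches.
TNFRSF17 15.4 kb upstream, chr16:11949697-11949890: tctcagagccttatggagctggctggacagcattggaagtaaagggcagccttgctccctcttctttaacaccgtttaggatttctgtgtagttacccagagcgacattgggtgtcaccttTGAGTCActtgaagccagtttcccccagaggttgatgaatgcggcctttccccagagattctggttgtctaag
CD38 11.9 kb upstream, chr4:15766283-15766482: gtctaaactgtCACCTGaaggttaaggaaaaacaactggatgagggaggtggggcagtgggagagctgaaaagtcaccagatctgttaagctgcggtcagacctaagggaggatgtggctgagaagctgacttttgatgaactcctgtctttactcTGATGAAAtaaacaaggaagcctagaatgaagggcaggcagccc
FCRL5 41.5 kb downstream, chr1:157510912-157511111: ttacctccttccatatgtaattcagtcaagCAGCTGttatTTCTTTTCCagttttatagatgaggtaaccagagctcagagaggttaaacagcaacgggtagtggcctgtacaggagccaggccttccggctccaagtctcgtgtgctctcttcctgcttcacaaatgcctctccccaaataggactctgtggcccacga
GPRC5D 40.7 kb upstream, chr12:12992815-12993014: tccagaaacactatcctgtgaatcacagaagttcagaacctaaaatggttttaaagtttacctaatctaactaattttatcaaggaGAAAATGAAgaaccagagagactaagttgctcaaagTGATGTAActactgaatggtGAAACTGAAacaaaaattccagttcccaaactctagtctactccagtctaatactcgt

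Over all member windows, the central 200 bp of 75 of 106 MM.1S peaks (70.8%, interval 61.5 to 78.6) and of 71 of 102 RPMI8226 peaks (69.6%, 60.1 to 77.7) matched at least 1 of 15 motifs, against 61.9% and 66.4% of all peaks. CAGGTG matched in 20 of 44 promoter-class peaks of MM.1S (45.5%, 31.7 to 59.9) and in 18 of 45 of RPMI8226 (40.0%, 27.0 to 54.5), where the shares over all promoter peaks were 23.8% and 23.4%. It was the most common motif of the windows. In distal peaks it matched in 33.9% and 36.8%, against 28.8% and 28.1% of all distal peaks. AP-1, the motif of JUNB and its partners, matched in 4 of 62 distal peaks of MM.1S (6.45%, 2.54 to 15.4) and in 7 of 57 of RPMI8226 (12.3%, 6.08 to 23.2), against 9.17% and 17.0% of all distal peaks. STAT3 matched in none of these distal peaks, but in only 0.605% and 0.647% of all distal peaks, too few for that to set them apart. In promoter-class peaks STAT3 matched in 1 of 44 in MM.1S (2.27%, against 0.572% of all promoter peaks). It matched in none of the 45 in RPMI8226 (against 0.612%).

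The lines shared most of these peaks. Any overlap of 1 bp or more with an interval of the second line made a peak shared, which held for 74 of 106 MM.1S peaks (69.8%, 60.5 to 77.7) and 82 of 102 RPMI8226 peaks (80.4%, 71.6 to 86.9). The background was 64.6% of all MM.1S and 62.0% of all RPMI8226 peaks, so that the share was near it in MM.1S and above it in RPMI8226. Among peaks not narrower than the median of their list in both lines, however, 62.7% of RPMI8226 peaks (50.0 to 73.9) were shared, close to the 59.1% of all such peaks. Distal peaks were shared in 42 of 62 cases in MM.1S (67.7%, 55.4 to 78.0, against 60.0% of all distal peaks) and in 45 of 57 in RPMI8226 (78.9%, 66.7 to 87.5, against 53.7%). Peaks at promoters, of the member or of another gene, were shared in 32 of 44 cases in MM.1S (72.7%, against 71.8% of all promoter peaks) and in 37 of 45 in RPMI8226 (82.2%, against 76.6%). With a stricter definition, an overlap of at least 50% of both peaks, the shares were 55.7% and 57.8%, against 51.8% and 47.2% of all peaks.

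**Figure D5:**
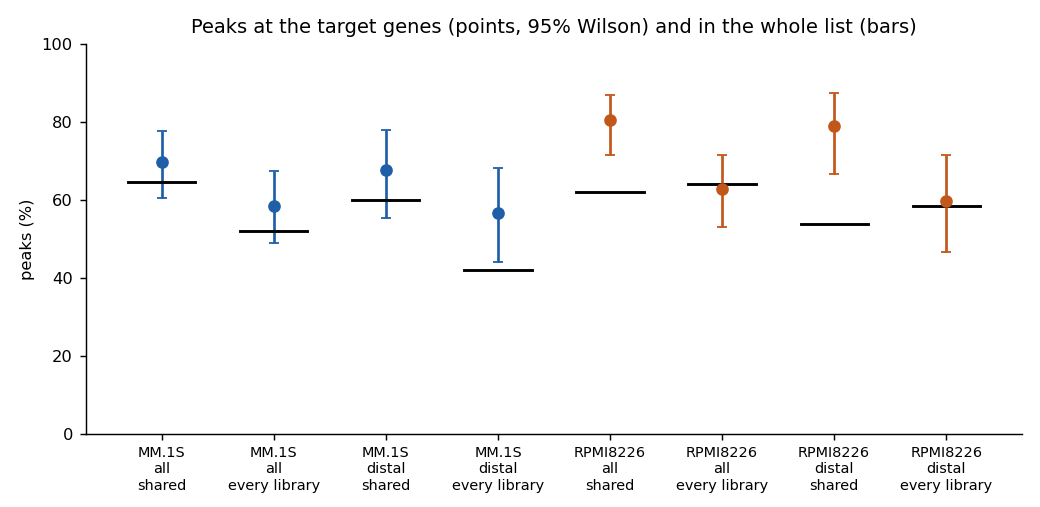
Percentage of peaks (y axis) in the windows of the target genes that are shared with the other list or called in every library, for all and for distal peaks of each line, as points with 95% Wilson intervals, and the same percentage over the whole list as black bars. Shared peaks of RPMI8226 (80.4% and 78.9%) lie above the bars (62.0% and 53.7%), and most other points lie nearer to theirs.

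Peaks called in every library made up 62 of 106 in MM.1S (58.5%, 49.0 to 67.4, against 52.0% of all peaks) and 64 of 102 in RPMI8226 (62.7%, 53.1 to 71.5, against 64.1%). In distal peaks they were 35 of 62 in MM.1S (56.5%, 44.1 to 68.1, against 42.0%) and 34 of 57 in RPMI8226 (59.6%, 46.7 to 71.4, against 58.5%). At promoters they were 27 of 44 (61.4%, against 67.5%) and 30 of 45 (66.7%, against 74.2%). Of shared MM.1S peaks, 57 of 74 were called in every library (77.0%, against 65.4% of all shared peaks), and of unshared ones 5 of 32 (15.6%, against 27.5%). In RPMI8226 it was 54 of 82 (65.9%, against 76.7%) and 10 of 20 (50.0%, against 43.6%). A support of at most 6 in MM.1S or at most 4 in RPMI8226 is the only case in which a peak could be absent from every MONO library. Such peaks numbered 24 of 106 in MM.1S (22.6%, against 27.7% of all peaks) and 38 of 102 in RPMI8226 (37.3%, against 35.9%). At promoters they were 8 of 44 (18.2%, against 17.3%) and 15 of 45 (33.3%, against 25.8%), and among distal peaks 16 of 62 (25.8%, against 34.3%) and 23 of 57 (40.4%, against 41.5%). Which libraries lack them is not given, so they are no measure of a change with coculture.

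MM.1S peaks were the wider ones. Of 69 pairs in which a peak of each line overlapped only each other, the MM.1S peak was wider in 63 (91.3%, 82.3 to 96.0), as in 81.6% of all 44631 such pairs, with median widths of 606 and 433 bp. The centres lay a median of 56 bp apart. Across the windows, 5 MM.1S peaks covered 13 RPMI8226 peaks in groups, at SDC1, TNFRSF17 and GSPT1, LINC02090 and SLAMF7, and no RPMI8226 peak covered more than 1 MM.1S peak. The 35447 bp open in both lists were 51.2% of the MM.1S and 79.5% of the RPMI8226 peak length in the windows. Peak counts per gene therefore depend on how intervals were joined, and a higher count in RPMI8226, as at TNFRSF17, does not mean more open sequence: its peaks summed to 4425 bp in MM.1S and 3332 bp in RPMI8226.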

How the data were processed

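Chromatin accessibility was profiled by Omni-ATAC in 14 libraries, grouped by line and culture condition from their titles. As the study's methods state, paired-end reads were aligned by the authors to hg38 with Bowtie2, multiply mapped reads were left out, 1 read was kept per position, and MACS3 peaks of each library were kept when found in at least 3 libraries of a line. Versions, peak thresholds and any transposase offset are not given in the sources used here. The deposited values are of another kind than counts: a peak's start and end, read as 0-based starts and printed 1-based, and a whole number without a header, read as the number of libraries with the peak because its range runs from the authors' minimum of 3 to the 9 or 5 libraries of the line. They were not normalized. No library has a value of its own, so the planned edgeR test between MONO, TSW and CO was not run. The lists give no depth, and the read totals in the study's supplement were not used here.

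Genes and start sites came from GENCODE release 44 and promoter sequences from RefSeq (5 of 9 members matched). The promoter window was 2500 bp as in the study. The split of promoters by CpG was added after seeing the data. Percentiles were taken over 20020 protein-coding genes, including all members. Motifs were exact matches on either strand, in the central 200 bp of peaks; E-boxes, IRF and composite motifs can overlap each other. Scripts used Python 3.11.15, pandas 2.3.3, scipy 1.17.1 and pysam 0.24.0 and were tested on simulated intervals. All 9 members were named, with, per list, the widest distal peak called in every library or every distal peak where there were at most 3; other peaks are given as examples chosen after their values were seen. Partner genes were named when a list lacked their promoter peak, as were the ligands, and neighbours when their promoter in a window held a peak; further partner and marker genes are named as examples. The members and lists were chosen with earlier results of these data known. The nearest genes of MS4A1 by peak pattern are not reported here.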

Additional observations from a re-analysis of the deposited data

How the results depend on the processing

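The 8 and 7 members with a promoter peak became 7 or 8 in MM.1S and 5 or 7 in RPMI8226 over the alternatives for support, width, promoter window and start sites. Within the gene body alone, MM.1S held 30 peaks (14 distal) and RPMI8226 28 (13 distal). With both lists limited to peaks called in every library, the counts were 62 (35 distal) and 64 (34 distal), and 68.8% of the RPMI8226 peaks were shared, against 55.5% of all such peaks. With both lists limited to peaks not narrower than their median, the counts were 53 (24 distal) and 59 (29 distal), 62.7% of RPMI8226 peaks were shared (59.1% of all), and 81.1% (MM.1S) and 84.7% (RPMI8226) were called in every library (78.6% and 86.1% of all). The shared percentage fell to 55.7 and 57.8 under a required overlap of 50% of each peak, to 67.6 for RPMI8226 with centres within 250 bp (55.3% of all peaks), and to 50.0 and 63.7 when the other list alone was limited to peaks called in every library (50.5% and 41.4% of all). With a support of at least 6 of 9 in MM.1S, chosen after seeing the data to bring its minimum nearer to that of RPMI8226, 80.2% of MM.1S peaks were shared (72.3% of all) and 72.1% were called in every library (66.3% of all). A search of whole peaks found at least 1 motif in 92.5% (MM.1S) and 90.2% (RPMI8226), against 88.9% and 83.4% of all peaks. In 60 of 85 such recomputations the value stayed within 1.5 times the main count or within the interval of the main share, as did 44 of 99 for single genes. Canonical start sites, also added later, left the promoter counts of the members at 8 and 7. Leaving out a library could not be run, because the lists hold no values per library, and what depth limits was not tested. No paired analysis was possible because the lists carry no replicate numbers.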

Other observations

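For the members other than MS4A1, the protein-coding genes with the most similar peak pattern were sought over 6 values (support of the best promoter peak, promoter peak length and number of distal peaks, in each of the 2 lines). TNFRSF17 had 167 genes within a distance of 0.1, led by ZSCAN32 and MRPS23. TNFRSF13C had 2 such genes, MOGAT3 and CHST9, GPRC5D had 1, AKR1E2, and SLAMF7 had 0, its nearest gene being IRF2BPL at 0.228. CD38 lay nearest to SLC5A6 and USPL1, TNFRSF13B to RBM33 and NEO1, FCRL5 to CAMK1D and CUL1, and SDC1 to ATP2B4 and DIS3L2. With 2 lines and few possible values these distances are descriptions of peak patterns.

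Of 8 B cell markers, promoter peaks marked 8 in MM.1S and 6 in RPMI8226, where SPIB and CD22 had none. Of 5 myeloid markers, promoter peaks marked 2 in MM.1S and 5 in RPMI8226. The shares over all protein-coding genes were 76.9% and 71.9%.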
